A study of Mus musculus with 24 samples.

Results

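Messenger RNA was counted in mouse bone marrow-derived dendritic cell cultures, and 34 genes that mark other myeloid lineages were followed through every library. The set holds 18 neutrophil genes and 16 genes of mast cells, basophils and eosinophils. Each gene was taken by its symbol and matched to the Ensembl identifier of 1 of the 55414 gene lines in each count file, and all 34 were found. The marrow came from Cas9-EGFP or WT C57BL/6JRj mice, and the labels tie no library to either of them. GM cultures received GM-CSF at 20 ng/ml and were taken on day 8, and the series calls them moDCs. FL cultures received FLT3L at 200 ng/ml besides GM-CSF at 20 ng/ml and were taken on day 16, and the series calls them cDC1. Both were sampled at the start (t0) or after 24 h, either in the solvent DMSO or in AZD5582, a dimeric mimetic of the mitochondrial protein Smac that blocks inhibitor of apoptosis proteins (IAPs). AZD5582 was given at 0.1, 0.5 or 1 uM to GM cultures and at 0.05 uM to FL cultures, so no dose was shared. Each of the 8 groups held 3 libraries from biological replicates, which carry the numbers 1, 2 and 3 in GM cultures and the culture numbers 91, 94 and 95 in FL cultures. In the titles all GM libraries share 1 culture number, of which 1, 2 and 3 are parts, while the FL libraries have 3 culture numbers. The spread among GM libraries may therefore not be that of separate cultures. These are cultures with no sort stated, so the libraries can hold RNA of other cell types beside dendritic cells. That every cell in the dish was taken is not established here.

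Neutrophils mature in the marrow through stages that fill different granules. Promyelocytes make the proteases and the peroxidase of azurophil granules, later stages make specific and gelatinase granule proteins under the transcription factor C/EBP epsilon, and mature cells display Ly6G and the chemokine receptor CXCR2. Mast cells, basophils and eosinophils arise from progenitors that use the transcription factor GATA2, and they store their own proteases, histamine and basic proteins. GM-CSF supports the growth and survival of granulocytes as well as of dendritic cells and macrophages, so such cells are known companions in marrow cultures grown with it. Some members are not restricted to these lineages: monocytes also make S100a8 and S100a9, and some macrophages make Siglecf and Ear2.

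Libraries held 27012555 to 85820558 counts on gene lines. Mitochondrial genes took 1.38% to 8.04% of them, the highest in replicate 1 of the GM cultures at 1 uM. The dendritic cell label was checked on 12 markers: their summed level was 8777 to 25309 CPM (counts relative to the scaled total of their library) over all 24 libraries. Xcr1, Clec9a and Cadm1, which mark cDC1, had means of 212, 114 and 112 CPM in FL cultures at the start and of 0.139, 0.811 and 0.698 CPM in GM cultures. The 12 monocyte and macrophage markers summed to 4002 to 34094 CPM in GM libraries and to 353 to 1654 CPM in FL libraries.

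RNA of the neutrophil genes was present in all 24 libraries, and its summed level is given first for each kind of culture. CPM values were scaled by edgeR's TMM factors over all 24 libraries, and fold changes were tested with edgeR's quasi-likelihood test, called at a Benjamini-Hochberg adjusted p under 0.05 over all genes. In GM cultures the 18 neutrophil genes summed to 1061, 989.7 and 928 CPM at the start, 1027, 1080.1 and 1201 CPM in DMSO, 158, 276 and 221 CPM at 0.1 uM, 85.3, 81.8 and 75.2 CPM at 0.5 uM and 109, 88.9 and 66.9 CPM at 1 uM, in the order of replicates 1, 2 and 3. Every treated GM library lay below every DMSO library. The GM sums were mostly those of the 8 specific and gelatinase granule genes, at 835, 804 and 700 CPM at the start and 93.8, 80.8 and 59.0 CPM at 1 uM. Mmp8 was the largest single part at the start, in DMSO and at 1 uM, with its values given below. At 1 uM 12, 14 and 13 of the 18 genes stood under 1 CPM, so the sums there rest on few genes. In FL cultures the same sum was 1384, 4552 and 2288 CPM at the start, 2264, 10638 and 4402 CPM in DMSO and 214, 4034 and 438 CPM at 0.05 uM, in the order of cultures 91, 94 and 95. Culture 94 was the highest in each group, and its treated library lay within the range of the DMSO libraries of the other cultures.

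The mast cell, basophil and eosinophil genes gave another picture. Their sum in GM cultures was 719.8, 517 and 485 CPM at the start, 336, 322 and 259 CPM in DMSO, 113, 133 and 103 CPM at 0.1 uM, 92.9, 134 and 89.99 CPM at 0.5 uM and 129, 99.02 and 98.1 CPM at 1 uM. The fall of the GM sum with AZD5582 was mostly that of Ear2, which made up 78.1, 73.3 and 67.7% of it in the DMSO libraries and 34.4, 26.5 and 27.02% at 1 uM. Without Ear2, left out after its values were seen, the sum was 73.6, 86.03 and 83.6 CPM in DMSO and 84.8, 72.8 and 71.6 CPM at 1 uM, ranges that overlap. The 5 protease genes summed to 10.1, 13.9 and 11.97 CPM in DMSO and 22.9, 25.3 and 14.6 CPM at 1 uM. In FL cultures the sum of all 16 was 409, 1646 and 850.0 CPM at the start, 399, 3710.2 and 1789 CPM in DMSO and 306, 4031 and 1754 CPM at 0.05 uM. Within each FL culture the treated and DMSO sums were close, while culture 94 stood far above culture 91 throughout. In bulk RNA, fewer cells of a type and less RNA per cell cannot be told apart, and this holds for every value below.

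**Figure D1:**
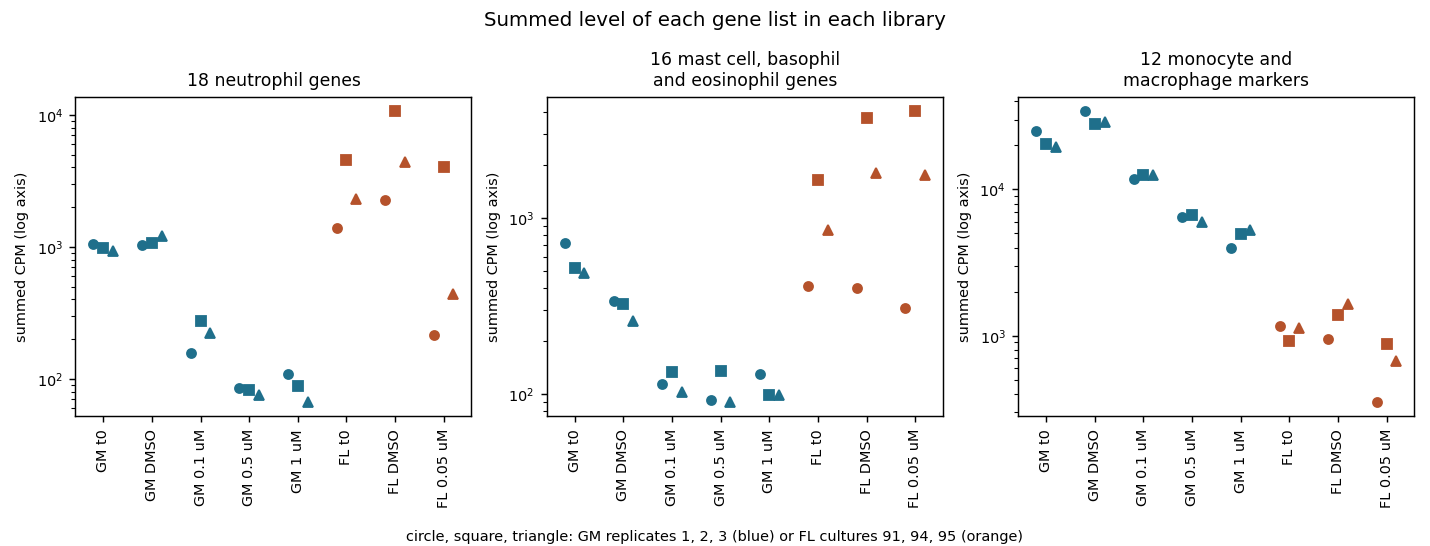
Summed CPM (log axis) of the 18 neutrophil genes, the 16 mast cell, basophil and eosinophil genes and the 12 monocyte and macrophage markers in each of the 24 libraries, with groups along the x axis and 1 point for each library. In GM cultures (blue) the 3 sums are lower in every treated library than in every DMSO library, where the fall of the mast cell, basophil and eosinophil sum is mostly that of Ear2, and in FL cultures (orange) the squares of culture 94 stand highest for both lists of members in every group.

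In GM cultures AZD5582 was accompanied by low neutrophil gene RNA at each dose. Of the 18 neutrophil genes, 14 fell at 0.1 uM, 15 at 0.5 uM and 16 at 1 uM, and none rose. Among all genes tested 20.3%, 27.7% and 28.2% were called lower at these doses, and the median change of the 18 was -2.74, -4.17 and -4.16 on the log2 scale beside medians of -0.01, -0.03 and -0.01 over all genes. The 3 doses share 1 set of DMSO libraries. Where treated and DMSO libraries are said not to overlap, here or below, the share of all genes without overlap was not counted. Such statements describe the values and cannot be read as particular to the members. The 2 subunits of calprotectin, a calcium- and zinc-binding complex of the neutrophil cytosol, show the pattern. S100a8 (ENSMUSG00000056054) read 95.5, 73.9 and 94.5 CPM at the start, 86.1, 92.4 and 135 CPM in DMSO, 13.5, 13.9 and 13.9 CPM at 0.1 uM, 5.63, 6.44 and 5.31 CPM at 0.5 uM and 10.8, 4.34 and 4.45 CPM at 1 uM. S100a9 read 111, 91.1 and 115 CPM at the start, 123, 131 and 172 CPM in DMSO, 3.57, 5.06 and 6.54 CPM at 0.1 uM, 0.479, 0.957 and 0.973 CPM at 0.5 uM and 1.79, 0.475 and 1.14 CPM at 1 uM. For both genes the treated libraries lay below all start and DMSO libraries, while the start and DMSO ranges overlapped for S100a8. The change against DMSO was -2.85 ± 0.29 (log2, SE) for S100a8 at 0.1 uM, -4.07 ± 0.31 at 0.5 uM and -3.895 ± 0.31 at 1 uM (adjusted p = 1.59e-06, 3.46e-08 and 4.94e-08). For S100a9 it was -4.73 ± 0.29, -7.29 ± 0.35 and -6.86 ± 0.34 (adjusted p = 9.01e-09, 1.98e-10 and 2.24e-10). Replicate 1 at 1 uM, the library with the highest mitochondrial share, had the highest S100a8 and S100a9 values of its group, and without it the count of neutrophil genes that fell at 1 uM was again 16.

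Genes of specific and gelatinase granule proteins fell almost throughout: 7 of 8 at 0.1 uM, and 8 of 8 at 0.5 uM and at 1 uM. Ltf encodes lactoferrin, which binds iron. It read 23.8, 22.2 and 27.8 CPM at the start, 39.8, 43.99 and 78.1 CPM in DMSO, 0.537, 1.76 and 1.15 CPM at 0.1 uM, 0.0845, 0.179 and 0.207 CPM at 0.5 uM and 0.0249, 0.1899 and 0.154 CPM at 1 uM, and changed by -5.505 ± 0.35, -8.21 ± 0.43 and -8.61 ± 0.46 at the 3 doses (adjusted p = 8.74e-09, 3.68e-10 and 3.33e-10). Ngp encodes neutrophilic granule protein, a member of the cystatin family. Its libraries read 90.8, 76.7 and 75.7 CPM at the start, 88.6, 101 and 175 CPM in DMSO, 2.57, 6.13 and 4.64 CPM at 0.1 uM, 0, 0.7402 and 0.495 CPM at 0.5 uM and 0.298, 0.451 and 0.443 CPM at 1 uM, a change of -4.71 ± 0.41, -7.88 ± 0.50 and -8.13 ± 0.53. At 0.5 uM replicate 1 had no Ngp count at all. Lcn2 encodes lipocalin 2, which binds bacterial iron carriers. It read 24.7, 25.5 and 21.7 CPM at the start, 51.8, 60.2 and 73.5 CPM in DMSO, 2.57, 4.25 and 3.43 CPM at 0.1 uM, 0.7604, 1.44 and 0.989 CPM at 0.5 uM and 1.22, 0.594 and 0.808 CPM at 1 uM, a change of -4.11 ± 0.22, -5.71 ± 0.25 and -6.04 ± 0.26. The 3 genes had no overlap between treated and DMSO libraries at any dose. Mmp8, the neutrophil collagenase, read 645, 638 and 536 CPM at the start, 416, 423 and 366 CPM in DMSO, 70.8, 143 and 87.9 CPM at 0.1 uM, 48.7, 44.4 and 32.7 CPM at 0.5 uM and 66.6, 45.7 and 29.3 CPM at 1 uM. No treated library overlapped a DMSO library here either, and the changes were -1.93, -3.17 and -2.97. Camp, the cathelicidin precursor, changed by -6.601 at 1 uM, Chil1, a chitinase-like protein, by -5.64, and Hp, haptoglobin, by -4.31. Mmp9, gelatinase B, was the exception at the lowest dose: its change at 0.1 uM was -0.12 ± 0.19 (adjusted p = 0.663), against -1.43 at 0.5 uM and -1.32 at 1 uM, which passed.

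Upstream sequences are shown for 4 neutrophil genes that fell in GM cultures at all 3 doses and for 2 mast cell genes that did not. The 6 were picked among members that hold the letters marked in them, so they do not show that the letters go with the response. Each is the 250 bases before the start of the gene in RefSeq, build GRCm38.p6, printed from 5′ to 3′ on the strand of the gene. The counts themselves were made on GRCm39, so the positions refer to the RefSeq table alone. Capitals mark TTGCNNAA, a form of the letters bound by the C/EBP family, in the neutrophil genes and AGATAA, a form of the letters bound by the GATA family, in the mast cell genes, found on either strand.
Ltf, chr9:111019042-111019291, plus strand: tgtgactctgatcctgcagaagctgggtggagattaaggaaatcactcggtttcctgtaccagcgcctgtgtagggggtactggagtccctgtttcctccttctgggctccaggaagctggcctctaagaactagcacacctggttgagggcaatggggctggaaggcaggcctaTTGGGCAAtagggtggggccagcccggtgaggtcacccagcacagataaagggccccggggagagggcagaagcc
Ngp, chr9:110419558-110419807, plus strand: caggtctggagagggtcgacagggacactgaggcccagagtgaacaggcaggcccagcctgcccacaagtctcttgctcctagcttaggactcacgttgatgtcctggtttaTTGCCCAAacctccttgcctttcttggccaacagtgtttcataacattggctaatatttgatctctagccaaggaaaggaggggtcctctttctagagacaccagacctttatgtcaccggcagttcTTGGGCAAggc
Lcn2, chr2:32387740-32387989, minus strand: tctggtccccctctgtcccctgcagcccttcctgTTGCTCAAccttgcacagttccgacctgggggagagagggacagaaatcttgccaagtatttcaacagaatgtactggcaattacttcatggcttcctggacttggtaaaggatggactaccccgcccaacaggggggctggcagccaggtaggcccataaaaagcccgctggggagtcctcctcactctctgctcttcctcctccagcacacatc
S100a9, chr3:90695722-90695971, minus strand: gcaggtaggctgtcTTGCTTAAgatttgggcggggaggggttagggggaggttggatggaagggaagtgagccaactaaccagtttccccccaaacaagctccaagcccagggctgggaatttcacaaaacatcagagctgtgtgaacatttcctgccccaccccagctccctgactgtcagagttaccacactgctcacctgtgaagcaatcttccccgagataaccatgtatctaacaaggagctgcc
Cpa3, chr3:20242182-20242431, minus strand: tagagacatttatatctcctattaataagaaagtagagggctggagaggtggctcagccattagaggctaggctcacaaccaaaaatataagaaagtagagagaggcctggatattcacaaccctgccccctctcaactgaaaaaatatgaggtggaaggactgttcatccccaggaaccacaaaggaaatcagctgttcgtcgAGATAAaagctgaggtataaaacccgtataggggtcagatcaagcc
Ms4a2, chr19:11623720-11623969, minus strand: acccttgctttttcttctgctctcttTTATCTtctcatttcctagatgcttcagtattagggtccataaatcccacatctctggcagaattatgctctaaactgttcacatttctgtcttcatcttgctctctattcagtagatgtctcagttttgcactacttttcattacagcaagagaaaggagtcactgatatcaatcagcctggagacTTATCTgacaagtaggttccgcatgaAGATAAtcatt
The letters TTGCNNAA stood in the window of 7 of the 15 neutrophil genes that have an entry (Lcn2, Ltf, Ly6g, Mmp8, Ngp, Retnlg and S100a9) and of 4 of the 13 mast cell, basophil and eosinophil genes, compared with 9.564% of 32851 RefSeq promoters. AGATAA stood in the windows of 2 and 4 of them, compared with 9.988%, and a GAGGAA pattern of the ETS family in 10 and 3, compared with 23.25%. Ltf and S100a9 held AGATAA as well, apart from their TTGCNNAA. Camp, S100a8, Cxcr2, Chil1 and Elane also fell at all 3 doses and have no TTGCNNAA in this window, and Il1rl1 fell at all 3 doses and holds AGATAA. The first 30 transcribed bases of the entry were found in a GENCODE transcript for 24 of the 28 genes, not for Chil1, Fcer1a, Mmp8 and Retnlg. A match is a description of letters and not a bound site. Cpa3 had changes of 0.36, 0.55 and 0.87, and Ms4a2 of 0.13, 0.61 and 0.15. Hp, Mmp9, Cebpe, Prg2, Tpsab1 and Tpsb2 had no entry.

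Azurophil granule genes were at low levels in GM cultures before any treatment. Elane encodes neutrophil elastase. It read 1.197, 1.48 and 2.02 CPM at the start, 0.416, 0.226 and 0.503 CPM in DMSO, 0, 0 and 0.0999 CPM at 0.1 uM, 0, 0 and 0.01596 CPM at 0.5 uM and 0, 0 and 0 CPM at 1 uM, which is 71 counts over the 3 DMSO libraries, 6 at 0.1 uM, 1 at 0.5 uM and 0 at 1 uM. The ratio of DMSO to treated counts, each over its scaled library total, was 8.29 at 0.1 uM (95% exact interval 3.63 to 23.4) and 63.4 at 0.5 uM (11.01 to 2538), and at 1 uM Elane was at least 16.1-fold lower, taking 3 counts over the group as the floor. These intervals cover counting error only. Elane was called lower at each dose, and all 6 of its counts at 0.1 uM came from replicate 3. With Elane at this bound the median change of the 18 genes at 1 uM was -4.01. Mpo, myeloperoxidase, read 1.03, 1.63 and 2.46 CPM at the start, 0.161, 1.31 and 0.548 CPM in DMSO, 0, 0.392 and 0.0832 CPM at 0.1 uM, 0.0282, 0.421 and 0.112 CPM at 0.5 uM and 0.0249, 0.0237 and 0.0577 CPM at 1 uM and fell at 1 uM (-4.02 ± 1.13, adjusted p = 0.00616) but missed the threshold at 0.1 uM (-2.13, adjusted p = 0.0768) and 0.5 uM (-1.61, adjusted p = 0.12). Exons of Mpo and of Prtn3 overlap genes of the opposite strand, and no source used here says whether the counting kept the strands apart. The serine proteases Ctsg, cathepsin G, and Prtn3, proteinase 3, were called at no dose. Ctsg read 0.778, 1.301 and 0.634 CPM at the start, 0.309, 0.667 and 0.411 CPM in DMSO, 0.117, 0.336 and 0.333 CPM at 0.1 uM, 0.0282, 0.357 and 0.0479 CPM at 0.5 uM and 0.199, 0.451 and 0.2502 CPM at 1 uM. Prtn3 read 1.48, 2.16 and 2.65 CPM at the start, 0.524, 1.45 and 0.731 CPM in DMSO, 0.771, 0.504 and 0.599 CPM at 0.1 uM, 0.817, 0.434 and 0.511 CPM at 0.5 uM and 0.472, 0.475 and 0.674 CPM at 1 uM. Their changes at 1 uM were -0.53 ± 0.65 and -0.63 ± 0.40, at levels near 1 CPM or under it.

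Genes of mature neutrophils fell at each dose. Cxcr2 read 4.29, 4.83 and 3.71 CPM at the start, 1.799, 1.67 and 2.19 CPM in DMSO, 0.374, 0.895 and 0.433 CPM at 0.1 uM, 0.225, 0.753 and 0.558 CPM at 0.5 uM and 0.298, 0.902 and 0.385 CPM at 1 uM, a change of -1.73 ± 0.41 at 1 uM (adjusted p = 0.00158). Retnlg, resistin-like gamma, read 0.793, 0.544 and 0.407 CPM at the start, 7.07, 5.55 and 9.07 CPM in DMSO, 0.537, 0.196 and 0.216 CPM at 0.1 uM, 0, 0.357 and 0.319 CPM at 0.5 uM and 0.547, 0.309 and 0.135 CPM at 1 uM. The DMSO libraries of Retnlg stood above both the start and the treated libraries, and the change at 1 uM was -4.37 ± 0.56 (adjusted p = 4.24e-06). Ly6g, the surface protein used to identify mouse neutrophils, read 3.05, 2.42 and 1.89 CPM at the start, 2.71, 2.201 and 3.75 CPM in DMSO, 0.607, 0.951 and 0.183 CPM at 0.1 uM, 0.253, 0.689 and 0.335 CPM at 0.5 uM and 0.423, 0.404 and 0.2502 CPM at 1 uM, a change of -2.901 ± 0.47 (adjusted p = 4.67e-05). Treated and DMSO libraries did not overlap for any of the 3 genes, though the share of all genes without overlap was not counted. Cebpe, which encodes C/EBP epsilon, read 6.42, 6.23 and 4.34 CPM at the start, 7.36, 9.17 and 6.63 CPM in DMSO, 0.981, 1.37 and 1.23 CPM at 0.1 uM, 0.366, 0.868 and 0.287 CPM at 0.5 uM and 0.448, 0.688 and 0.577 CPM at 1 uM and changed by -2.62 ± 0.30, -3.76 ± 0.32 and -3.64 ± 0.32 (adjusted p = 1.43e-06, 1.79e-08 and 2.8e-08).

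**Figure D2:**
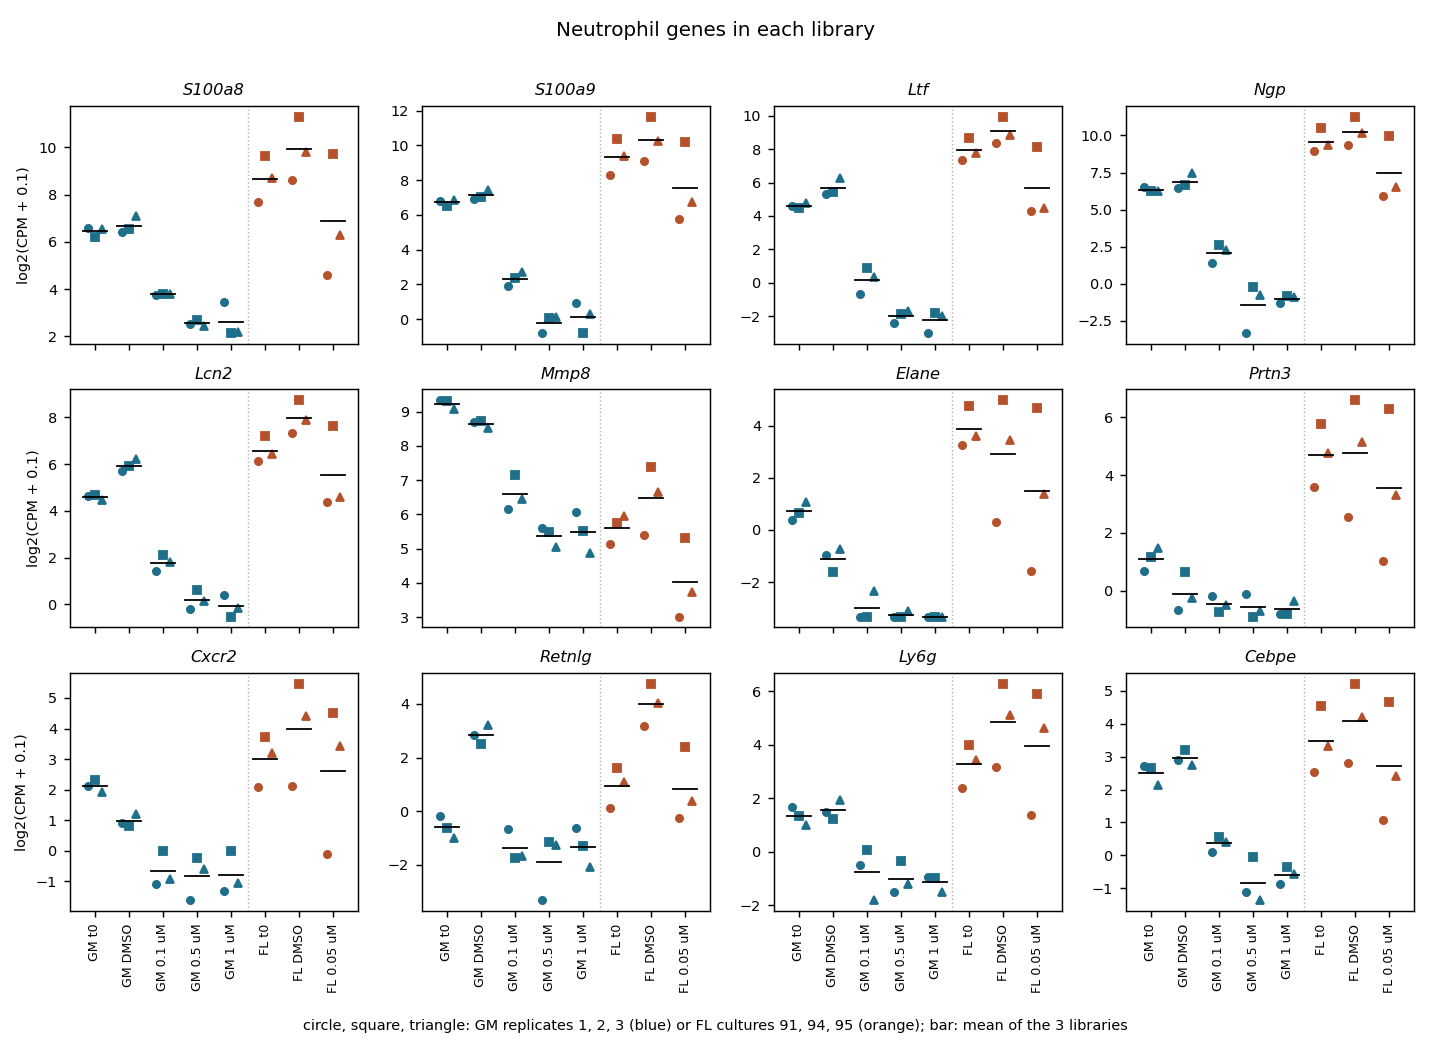
log2(CPM + 0.1) of 12 neutrophil genes in each library, with the 8 groups on the x axis; symbols give the replicate or culture and bars the mean of 3 libraries. In GM cultures (blue) Ltf, Ngp and Lcn2 drop at 0.1 uM and again at 0.5 uM, and in FL cultures (orange) the square of culture 94 stands highest in DMSO for each gene.

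The 24 h in DMSO alone changed these genes in both directions. Against the start, 7 of 18 neutrophil genes rose (27.2% of all genes did) and 3 fell (20.3% of all genes did). Those that rose were Retnlg (3.62 ± 0.51), Mmp9 (2.67 ± 0.21), Hp (2.001 ± 0.17), Camp (1.97 ± 0.30), Lcn2 (1.36 ± 0.19), Chil1 (1.205 ± 0.41) and Ltf (1.12 ± 0.27), of which all but Retnlg encode specific or gelatinase granule proteins. Those that fell were Elane (-2.06 ± 0.58), Prtn3 (-1.22 ± 0.37) and Cxcr2 (-1.19 ± 0.36). Calprotectin was not called, with 0.24 for S100a8 and 0.41 for S100a9. The call of Chil1 was lost without replicate 1 or 2 of the start or replicate 3 of DMSO (adjusted p from 0.0657 to 0.159), that of Elane without replicate 3 of the start (adjusted p = 0.0526) and that of Prtn3 without replicate 3 of the start or replicate 1 of DMSO (adjusted p from 0.0623 to 0.0631).

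Between 0.1 and 1 uM, 11 of the 18 neutrophil genes fell further, where 11.9% of all genes were called lower. All 8 specific and gelatinase granule genes were among them, led by Ngp (-3.42 ± 0.55, adjusted p = 0.000771), Ltf (-3.104 ± 0.58, 0.00152) and Hp (-2.39 ± 0.19, 6.27e-07). The others were S100a8, S100a9 and Cebpe. Retnlg and Cxcr2 were not called between the doses, with differences of 0.07 ± 0.65 and -0.04 ± 0.45. The count was 7 without replicate 3 at 0.1 uM and 7 without replicate 3 at 1 uM. Leaving out single libraries of either dose took the calls of S100a8 (adjusted p from 0.0551 to 0.083; lost without replicates 2 or 3 of either dose), Mmp8 (adjusted p from 0.0514 to 0.0943; without replicate 2 at 0.1 uM or 2 or 3 at 1 uM), Cebpe (adjusted p from 0.0895 to 0.133; without replicate 2 or 3 at 0.1 uM or 1 or 3 at 1 uM), Camp (adjusted p from 0.0701 to 0.0738; without replicate 3 of either dose) and Chil1 (adjusted p from 0.0612 to 0.0695; without replicate 3 at 0.1 uM or 1 at 1 uM). S100a8 differed by -1.04 with all libraries and by -1.63 without replicate 1 at 1 uM, and Chil1 by -2.33 and by -4.19 without replicate 3 at 1 uM.

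**Figure D3:**
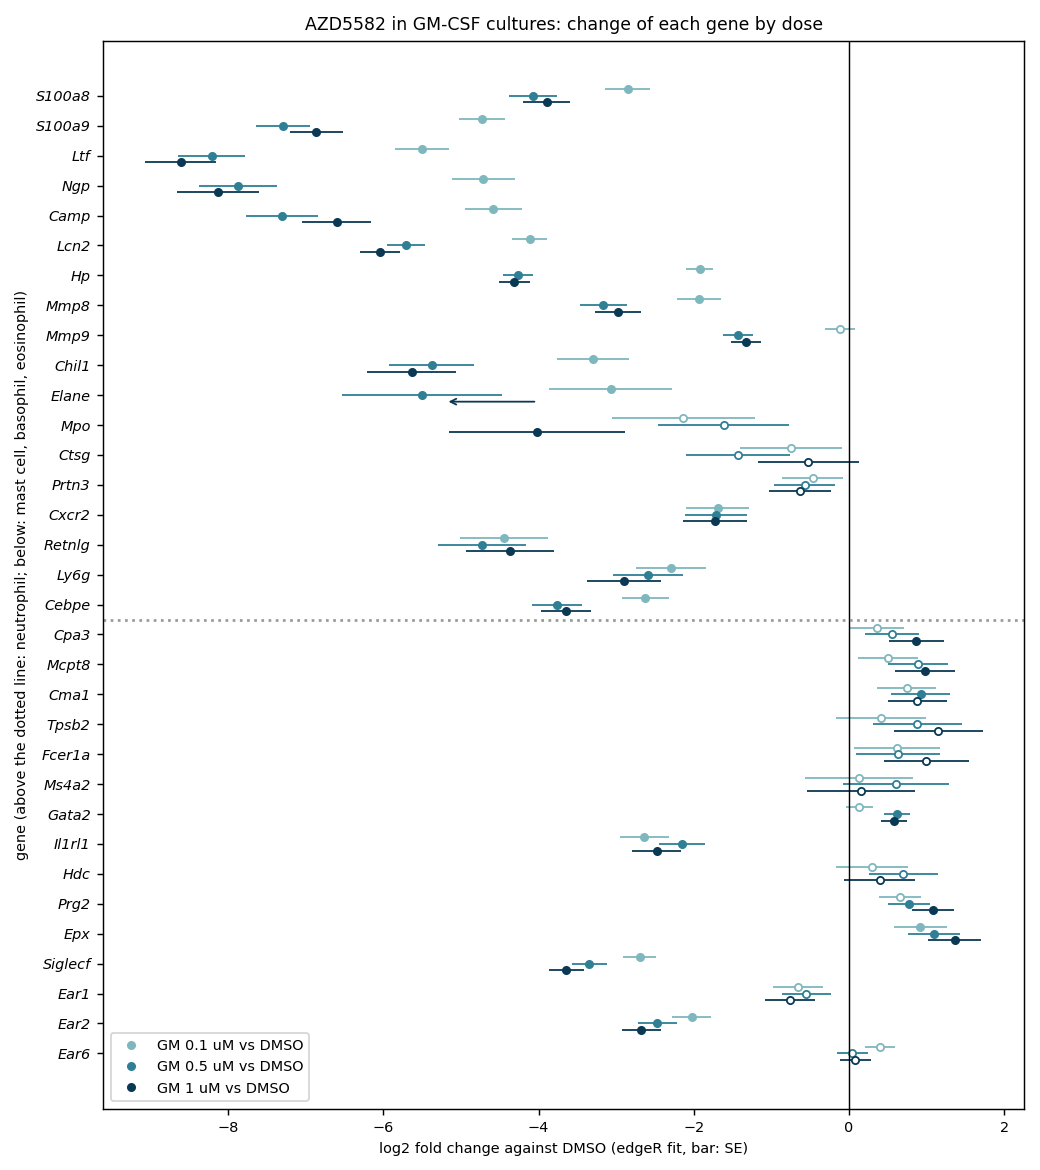
log2 fold change against DMSO (x axis, with SE bars) of the 33 tested members at 0.1, 0.5 and 1 uM AZD5582 in GM cultures, 1 row for each gene; filled points passed the adjusted threshold. The arrow for Elane at 1 uM starts at the bound set by the floor of 3 counts. The neutrophil genes above the dotted line lie to the left of 0, and below it only Il1rl1, Siglecf and Ear2 have filled points to the left.

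With AZD5582 in GM cultures 4, 7 and 8 of the 15 tested mast cell, basophil and eosinophil genes were called at 0.1, 0.5 and 1 uM. In each direction the shares were near or below those of all genes, save for the genes that rose at 1 uM. Of 15 tested, 3 fell at each dose, and these were Siglecf, Ear2 and Il1rl1 every time (20.3%, 27.7% and 28.2% of all genes fell). The number that rose was 1 at 0.1 uM, 4 at 0.5 uM and 5 at 1 uM (19.9%, 25.8% and 26.9% of all genes rose). The 7 calls at 0.5 uM became 4 without replicate 2 at that dose, and the 8 at 1 uM became 5 without replicate 1 in DMSO. The share of all genes called in these fits is not given here, so the drops cannot be read as particular to these genes. The median change was 0.36, 0.62 and 0.58. Tpsab1, which RefSeq classes as a transcribed pseudogene, did not pass the filter on low counts: it had 2 counts in replicate 1 at 1 uM, 3 counts in FL culture 95 in DMSO and none elsewhere.

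Among the proteases, Cpa3 encodes carboxypeptidase A3 of mast cells and basophils. It read 9.83, 18.1 and 12.3 CPM at the start, 7.21, 8.78 and 7.72 CPM in DMSO, 7.22, 13.4 and 8.46 CPM at 0.1 uM, 8.11, 17.9 and 6.302 CPM at 0.5 uM and 15.9, 14.3 and 9.87 CPM at 1 uM. Mcpt8, a basophil protease, read 2.71, 4.35 and 4.13 CPM at the start, 1.58, 2.41 and 2.03 CPM in DMSO, 2.102, 4.22 and 1.93 CPM at 0.1 uM, 2.42, 5.55 and 2.38 CPM at 0.5 uM and 3.06, 5.53 and 2.502 CPM at 1 uM. Both rose at 1 uM, by 0.87 ± 0.35 (adjusted p = 0.0497) and 0.98 ± 0.39 (adjusted p = 0.0398), without overlap between treated and DMSO libraries. The call of Cpa3 was lost without any 1 of the 3 DMSO libraries or replicates 1 or 2 at 1 uM (adjusted p from 0.0774 to 0.201), and that of Mcpt8 without replicate 1 or 3 in DMSO or 1 or 2 at 1 uM (adjusted p from 0.0572 to 0.24). Tpsb2, a tryptase, read 0.703, 1.32 and 0.846 CPM at the start, 0.456, 1.04 and 1.097 CPM in DMSO, 0.584, 1.68 and 1.03 CPM at 0.1 uM, 1.66, 2.34 and 0.431 CPM at 0.5 uM and 2.29, 2.33 and 0.693 CPM at 1 uM and was not called. Tryptase genes are related in sequence, and whether reads were split among them was not tested. Cma1, mast cell chymase, rose at 0.5 uM only (0.92 ± 0.38, adjusted p = 0.049), and that call was lost without replicate 1 or 3 in DMSO or 1 or 2 at 0.5 uM (adjusted p from 0.105 to 0.323).

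Of the receptors and regulators, Gata2 read 8.602, 11.3 and 10.04 CPM at the start, 3.64, 4.82 and 4.87 CPM in DMSO, 4.53, 5.595 and 3.81 CPM at 0.1 uM, 6.08, 6.55 and 6.54 CPM at 0.5 uM and 6.79, 5.75 and 5.93 CPM at 1 uM. It rose by 0.62 ± 0.17 at 0.5 uM (adjusted p = 0.00464) and 0.58 ± 0.17 at 1 uM (adjusted p = 0.00735; adjusted p = 0.0501 without replicate 1 in DMSO). Treated Gata2 libraries at these doses lay above all DMSO libraries and below all start libraries. Hdc, which makes histamine, read 2.199, 5.12 and 3.86 CPM at the start, 0.591, 1.16 and 1.53 CPM in DMSO, 0.561, 1.87 and 1.36 CPM at 0.1 uM, 1.01, 2.65 and 1.16 CPM at 0.5 uM and 1.19, 1.54 and 1.21 CPM at 1 uM. Ms4a2, the beta chain of the high-affinity IgE receptor, read 0.464, 0.692 and 0.927 CPM at the start, 0.242, 0.692 and 0.6398 CPM in DMSO, 0.304, 0.5595 and 0.749 CPM at 0.1 uM, 0.197, 1.05 and 0.925 CPM at 0.5 uM and 0.0497, 1.09 and 0.481 CPM at 1 uM. Neither was called at any dose, nor was Fcer1a, the alpha chain, at 0.169 to 0.932 CPM over the GM libraries. Il1rl1 encodes the receptor of interleukin 33. It read 24.6, 26.8 and 25.1 CPM at the start, 6.63, 8.56 and 6.31 CPM in DMSO, 1.05, 1.59 and 0.749 CPM at 0.1 uM, 0.986, 2.48 and 0.909 CPM at 0.5 uM and 0.994, 1.38 and 1.21 CPM at 1 uM, and it changed by -2.64 ± 0.32, -2.15 ± 0.30 and -2.48 ± 0.31 (adjusted p = 3.91e-06, 1.08e-05 and 3.46e-06), without overlap between treated and DMSO libraries.

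The eosinophil genes split within the group. Prg2 encodes major basic protein. It read 27.9, 28.3 and 31.6 CPM at the start, 10.95, 15.8 and 22.5 CPM in DMSO, 24.8, 24.1 and 24.7 CPM at 0.1 uM, 15.9, 37.4 and 24.8 CPM at 0.5 uM and 36.8, 24.9 and 34.7 CPM at 1 uM. Epx, eosinophil peroxidase, read 6.46, 8.83 and 10.1 CPM at the start, 0.993, 2.09 and 3.75 CPM in DMSO, 3.81, 4.28 and 3.94 CPM at 0.1 uM, 3.098, 5.61 and 4.53 CPM at 0.5 uM and 6.17, 4.297 and 5.43 CPM at 1 uM. Prg2 rose at 0.5 uM (0.77 ± 0.27, adjusted p = 0.0256) and 1 uM (1.08 ± 0.27, adjusted p = 0.00325), and Epx at all 3 doses (0.92 ± 0.34, 1.09 ± 0.34 and 1.36 ± 0.34, adjusted p = 0.0418, 0.012 and 0.00273). The Prg2 call at 0.5 uM was lost without replicate 1 or 2 in DMSO or 2 at 0.5 uM (adjusted p from 0.0728 to 0.181), and the Epx call at 0.1 uM without any single library but replicate 3 in DMSO (adjusted p from 0.0738 to 0.165), without which the change was 1.44. Without replicate 2 at 0.5 uM the Epx call at that dose was lost too (adjusted p = 0.0623), and without replicate 1 in DMSO the change there was 0.72. Siglecf, a sialic acid-binding receptor of eosinophils, read 81.6, 67.7 and 64.6 CPM at the start, 33.6, 32.04 and 23.6 CPM in DMSO, 3.15, 6.24 and 3.89 CPM at 0.1 uM, 2.42, 3.497 and 2.22 CPM at 0.5 uM and 2.26, 2.23 and 2.16 CPM at 1 uM. Ear2, an eosinophil-associated ribonuclease, read 519, 316 and 297 CPM at the start, 262, 236 and 175 CPM in DMSO, 55.1, 58.1 and 44.1 CPM at 0.1 uM, 41.5, 38.6 and 33.7 CPM at 0.5 uM and 44.5, 26.2 and 26.5 CPM at 1 uM. These 2 genes fell without overlap, Siglecf with changes of -2.69 ± 0.21, -3.34 ± 0.22 and -3.64 ± 0.23 and Ear2 with changes of -2.03 ± 0.25, -2.47 ± 0.25 and -2.68 ± 0.25 (adjusted p at 1 uM = 6.89e-10 and 2.71e-07). Ear6 changed by 0.08 ± 0.20 and Ear1 by -0.76 ± 0.32 at 1 uM and were not called. The Ear genes are near-identical copies and Ear1 shares exon sequence on the same strand with the pseudogene Ear-ps9, so their separate values are uncertain. Siglecf was the only gene of these 15 that fell further between 0.1 and 1 uM (-0.95 ± 0.23, adjusted p = 0.00933; adjusted p = 0.0571 without replicate 2 at 0.1 uM), where none rose (11.9% of all genes fell and 6.93% rose).

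Macrophage genes moved beside these changes. All 12 monocyte and macrophage markers fell at 0.5 and 1 uM in GM cultures (27.7% and 28.2% of all genes did), and 11 fell at 0.1 uM (20.3% of all genes did). Their summed level was 34094, 28155 and 28911 CPM in DMSO and 4002, 4982 and 5247 CPM at 1 uM. Ccr2, the receptor that brings monocytes into tissue, had a mean of 439 CPM in DMSO and 5.32 CPM at 1 uM, and no marker of the 12 had a mean of 0 at 1 uM. Their part in the changes of the members was not tested.

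**Figure D4:**
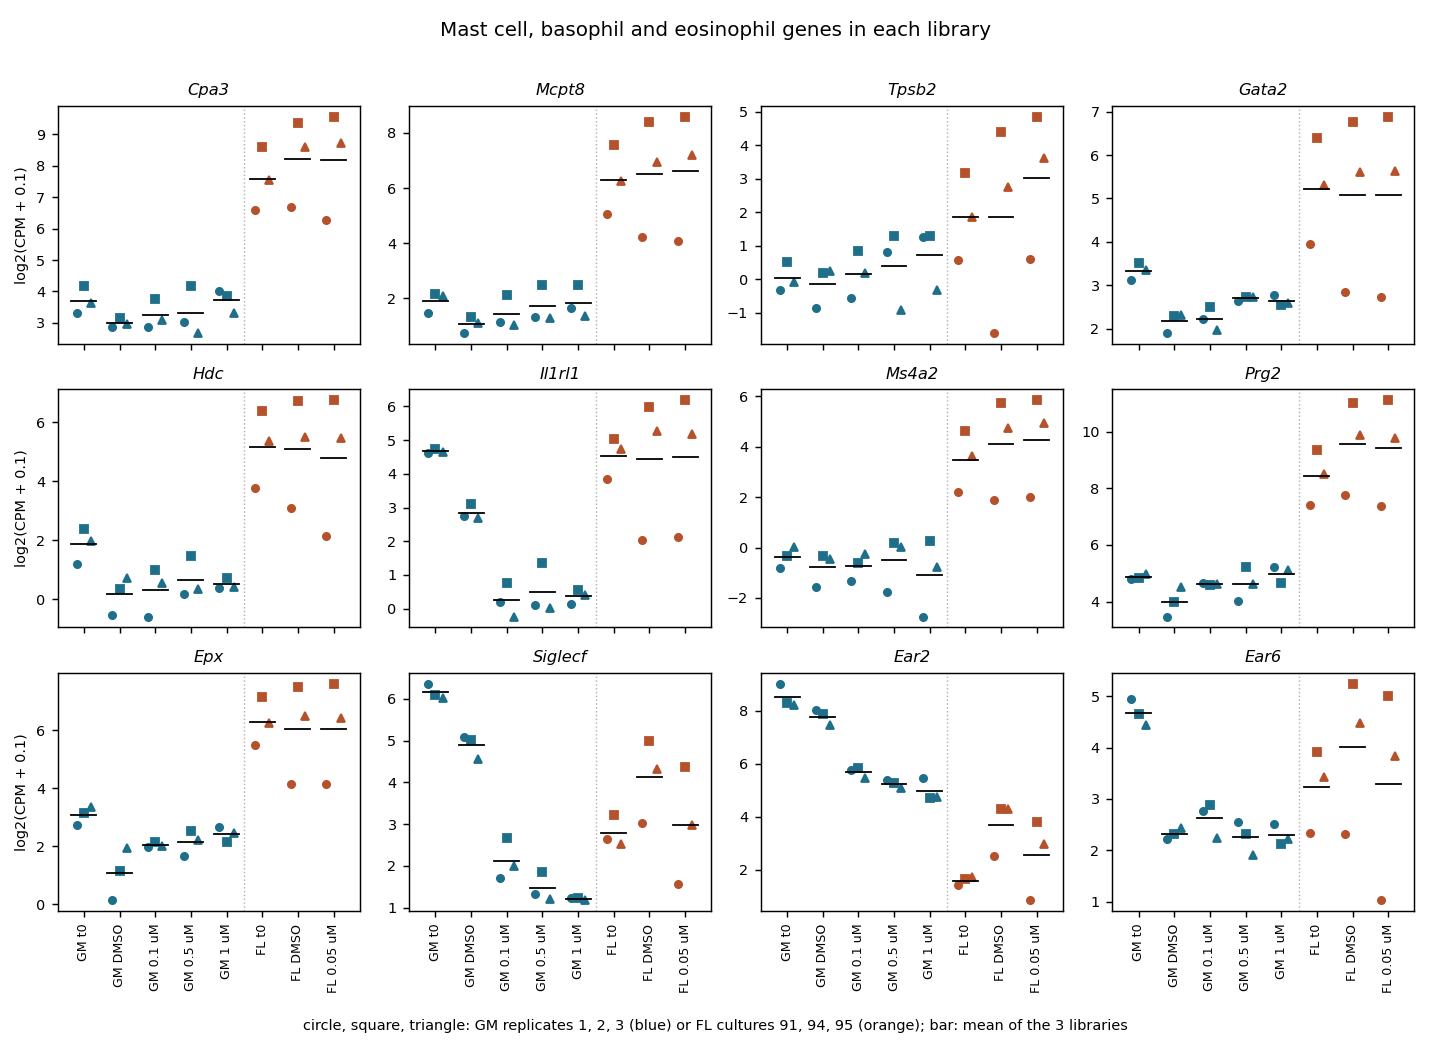
log2(CPM + 0.1) of 12 mast cell, basophil and eosinophil genes in each library, with the 8 groups on the x axis; symbols give the replicate or culture and bars the mean of 3 libraries. Il1rl1, Siglecf and Ear2 drop with AZD5582 in GM cultures (blue), Prg2 and Epx do not, and in FL cultures (orange) the points of culture 91 lie lowest in DMSO for each gene.

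After 24 h in DMSO, 8 of the 15 mast cell, basophil and eosinophil genes had fallen in GM cultures and none had risen. Of all genes 20.3% fell and 27.2% rose. They were Ear6 (-2.398 ± 0.20), Epx (-1.94 ± 0.34), Il1rl1 (-1.84 ± 0.28), Hdc (-1.798 ± 0.45), Siglecf (-1.27 ± 0.19), Gata2 (-1.18 ± 0.17), Prg2 (-0.85 ± 0.27) and Ear2 (-0.76 ± 0.24). Ear6 went from 30.6, 25.02 and 21.6 CPM at the start to 4.54, 4.92 and 5.32 CPM in DMSO. The edgeR test without replicate 1 of the start or 3 of DMSO lost Ear2 (adjusted p from 0.0733 to 0.0991; -0.47 without the former), and Prg2 was lost without replicate 3 of the start or 1 or 2 of DMSO (adjusted p from 0.0558 to 0.08). For Prg2, Epx and Gata2 the rise with AZD5582 was therefore measured from a DMSO level that was itself below the start.

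At the start most neutrophil genes had more RNA in FL than in GM cultures, and the mast cell, basophil and eosinophil genes went both ways. Of the 18 neutrophil genes 13 were higher in FL cultures and 1 was lower, and of 15 mast cell, basophil and eosinophil genes 7 were higher and 3 were lower (23.4% of all genes were higher and 17.5% lower). The cultures differ in cytokines and in the day of harvest, carry different culture numbers, and may differ in the genotype of the mice, and these cannot be told apart. All 4 azurophil granule genes were higher: Ctsg by 5.54 ± 1.12 (log2, SE; adjusted p = 0.000486), Prtn3 by 3.899 ± 0.98, Mpo by 3.89 ± 1.14 and Elane by 3.36 ± 1.13. Ctsg stood at 16.4, 82.2 and 27.5 CPM in FL cultures 91, 94 and 95 and at 0.778, 1.301 and 0.634 CPM in GM replicates 1, 2 and 3. Specific and gelatinase granule genes were higher in 5 of 8 cases, with Camp at 3.86 ± 0.84, Ltf at 3.42 ± 0.75, Ngp at 3.401 ± 0.82, Chil1 at 3.16 ± 0.75 and Lcn2 at 2.07 ± 0.59. Mmp8 went the other way, at 35.1, 53.6 and 62.2 CPM in FL and 645, 638 and 536 CPM in GM cultures (-3.59 ± 0.52, adjusted p = 1.33e-05). Hp, Mmp9, Cxcr2 and Cebpe were not called.

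Among the second list, Mcpt8 was higher in FL cultures by 4.73 ± 0.97, Ms4a2 by 4.301 ± 0.99, Cpa3 by 4.06 ± 0.72, Prg2 by 3.77 ± 0.75, Hdc by 3.62 ± 0.91, Epx by 3.37 ± 0.73 and Gata2 by 2.21 ± 0.77. Ear2 was lower by the widest margin of all members, at 2.56, 3.03 and 3.22 CPM in FL and 519, 316 and 297 CPM in GM cultures (-7.01 ± 0.62, adjusted p = 2.14e-08). Siglecf (-3.35 ± 0.52) and Ear1 (-2.37 ± 0.76) were lower too. Of the 3 genes lower in FL cultures, Siglecf and Ear2 also fell with AZD5582 in GM cultures. Il1rl1, which fell with AZD5582 there too, was not called at the start (-0.06 ± 0.71). The share of all genes that did both was not counted, so this overlap cannot be read as particular to these genes. Among the 12 monocyte and macrophage markers, 11 were lower in FL cultures at the start and 12 fell at 1 uM in GM cultures. Without FL culture 94 or without single GM start libraries the calls of S100a8 (adjusted p from 0.0655 to 0.117), Elane (adjusted p from 0.054 to 0.0808) and Gata2 (adjusted p from 0.0614 to 0.162) were lost, and each of these was lost without any 1 of the 3 GM libraries. Retnlg (1.78 ± 0.70; adjusted p from 0.067 to 0.177) and Ly6g (2.09 ± 0.78; adjusted p from 0.0655 to 0.133) were lost without any 1 of these 4 libraries or without FL culture 95, and Ear1 without GM replicate 1 or FL culture 91 or 95 (adjusted p from 0.0647 to 0.0775).

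The 3 FL cultures differed from each other in the RNA of both lists. At the start the order of culture 94 over 95 over 91 held in 16 of 18 neutrophil genes and in 12 of the 15 other members with counts, and in DMSO it held in all 18 and all 15. At 0.05 uM it held in 17 and 14. The median ratio of culture 94 to culture 91 was 3.14 at the start, 4.92 in DMSO and 17.1 at 0.05 uM for the neutrophil genes, and 4.004, 10.9 and 16.6 for the other list. The order and the ratio were not taken over all genes, so neither can be read as particular to the members. Libraries with the same culture number deviated together from their group means, and values from fits with the culture number as a block stand beside those without it.

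In FL cultures 0.05 uM AZD5582 was accompanied by lower RNA of all 18 neutrophil genes within each of the 3 cultures, where 27.8% of all genes with at least 10 counts in at least 3 FL libraries were lower in all 3. The median change was -2.30 in culture 91, -1.16 in culture 94 and -3.04 in culture 95 on the log2 scale. With the culture as a block edgeR called 10 of the 18 lower (3.19% of all genes), and without the block it called 0 (1.28% of all genes), with 4 at an unadjusted p under 0.05, while DESeq2 called 4. The 10 were S100a8 and S100a9, Retnlg, and every specific or gelatinase granule gene but Hp. S100a8 read 205, 806 and 418 CPM at the start, 398, 2530.2 and 907 CPM in DMSO and 23.9, 853 and 78.4 CPM at 0.05 uM, in the order of cultures 91, 94 and 95. S100a9 read 314, 1329 and 659 CPM at the start, 547, 3229 and 1193 CPM in DMSO and 54.9, 1152 and 105 CPM at 0.05 uM. The treated value of culture 94 exceeded the DMSO value of culture 91 for both genes, so the groups overlap although each culture went down. With the block the change was -2.88 ± 0.62 (adjusted p = 0.0402) for S100a8 and -2.65 ± 0.51 (adjusted p = 0.0304) for S100a9, against -2.01 ± 1.22 (adjusted p = 0.446) and -1.92 ± 1.14 (adjusted p = 0.436) without it.

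In granule genes too, culture 94 stood highest in DMSO and at 0.05 uM. Ltf read 164, 407 and 221 CPM at the start, 329.7, 990.1 and 464 CPM in DMSO and 19.9, 277 and 22.6 CPM at 0.05 uM. Ngp read 491, 1426 and 653 CPM at the start, 647, 2482 and 1149 CPM in DMSO and 60.4, 1018 and 92.6 CPM at 0.05 uM. In both, cultures 91 and 95 fell to a small part of their DMSO level and culture 94 kept more. Lcn2 read 69.6, 145 and 86.2 CPM at the start, 159, 424 and 235 CPM in DMSO and 20.98, 196 and 23.9 CPM at 0.05 uM. Mmp8 read 35.1, 53.6 and 62.2 CPM at the start, 41.7, 167 and 100.1 CPM in DMSO and 7.97, 39.8 and 13.2 CPM at 0.05 uM. Mmp8 lost a more even part in the 3 cultures, -2.37, -2.07 and -2.92 on the log2 scale. The blocked changes were -3.27 ± 0.60 for Ltf (adjusted p = 0.0273), -2.66 ± 0.56 for Ngp (0.0383), -2.34 ± 0.49 for Lcn2 (0.0381) and -2.43 ± 0.35 for Mmp8 (0.0144). Camp (-2.65), Chil1 (-2.501) and Mmp9 (-2.36) were called as well, with adjusted p = 0.0422, 0.0303 and 0.0213.

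Azurophil granule genes and Cebpe were called in neither fit. Elane read 9.503, 26.8 and 11.9 CPM at the start, 1.15, 31.2 and 10.9 CPM in DMSO and 0.237, 25.3 and 2.47 CPM at 0.05 uM. Mpo read 9.82, 45.6 and 20.3 CPM at the start, 2.26, 46.6 and 18.2 CPM in DMSO and 0.529, 31.5 and 6.45 CPM at 0.05 uM. In culture 91 both stood lower in DMSO than at the start, and lower again with AZD5582. Ctsg read 16.4, 82.2 and 27.5 CPM at the start, 5.14, 120.0 and 40.6 CPM in DMSO and 3.07, 105 and 22.2 CPM at 0.05 uM. Prtn3 read 11.8, 54.8 and 27.1 CPM at the start, 5.796, 96.6 and 35.6 CPM in DMSO and 1.93, 77.5 and 9.86 CPM at 0.05 uM. The within-culture differences with AZD5582 were -1.89, -0.30 and -2.096 for Elane and -0.72, -0.19 and -0.87 for Ctsg in cultures 91, 94 and 95. Of the genes of mature neutrophils, Retnlg read 0.981, 2.98 and 2.05 CPM at the start, 8.97, 26.7 and 16.2 CPM in DMSO and 0.737, 5.204 and 1.199 CPM at 0.05 uM, a blocked change of -3.17 ± 0.35 (adjusted p = 0.00593). Cxcr2 read 4.15, 13.00 and 9.03 CPM at the start, 4.22, 43.8 and 21.05 CPM in DMSO and 0.835, 22.6 and 10.6 CPM at 0.05 uM. Ly6g read 5.04, 15.9 and 10.5 CPM at the start, 8.94, 76.7 and 34.4 CPM in DMSO and 2.46, 58.9 and 24.2 CPM at 0.05 uM. The differences of these 2 genes were not called (-1.25 and -0.77 with the block). Cebpe read 5.702, 23.2 and 9.92 CPM at the start, 6.84, 36.9 and 18.5 CPM in DMSO and 2.003, 25.4 and 5.25 CPM at 0.05 uM, with differences of -1.72, -0.54 and -1.796 in the 3 cultures. The blocked calls rested on which cultures were present. Without culture 91 the blocked fit called 5 of 18 neutrophil genes lower, beside 11.6% of all genes. Without culture 94 it called 11 lower, beside 0.477% of all genes. Without culture 95 it called 0, where no gene of the 16292 tested was called and 10 neutrophil genes had an unadjusted p under 0.05. Without the block, 3 were called without the DMSO library of culture 91 and 8 without the treated library of culture 94. The number of all genes called also moved widely when 1 library was left out, with its range given in the last section. The share of all genes called in these 2 fits is not given here, so the 2 counts cannot be read as particular to the neutrophil genes.

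**Figure D5:**
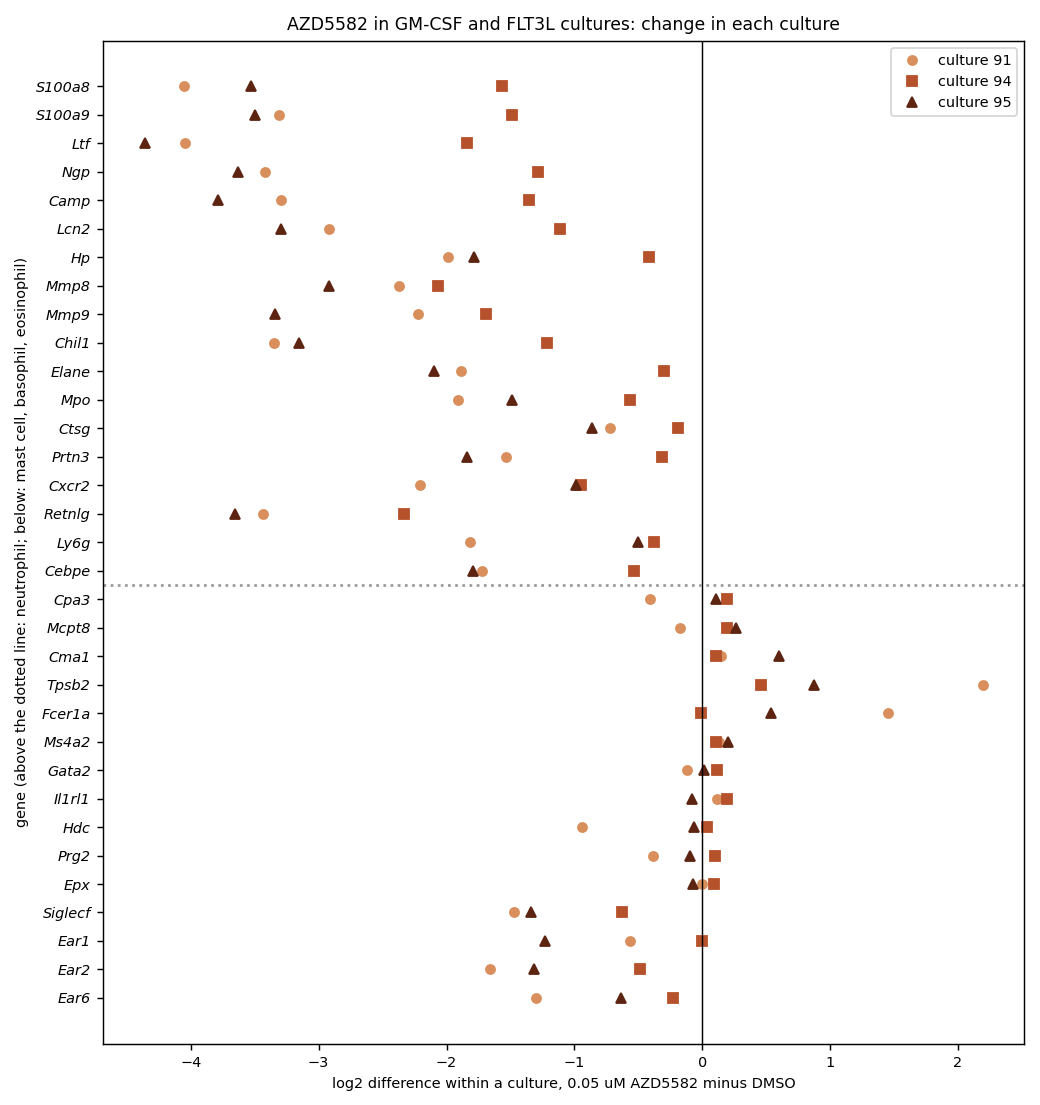
Difference in log2(CPM + 0.1) between 0.05 uM AZD5582 and DMSO within each FL culture (x axis), 1 row for each of 33 members and 1 point for each culture. All 54 points of the neutrophil genes lie to the left of 0, with those of culture 94 (squares) nearest to it, and below the dotted line the points lie on both sides, those of Siglecf, Ear1, Ear2 and Ear6 to the left and those of Cma1, Tpsb2 and Ms4a2 to the right.

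The mast cell, basophil and eosinophil genes gave no call with 0.05 uM AZD5582 in FL cultures by edgeR with or without the block or by DESeq2, and none of the 15 had an unadjusted p under 0.05 without the block. Of all genes edgeR called 2.9% without the block and 6.88% with it. Within cultures 4 were lower in all 3 (Siglecf, Ear1, Ear2 and Ear6) and 3 were higher in all 3 (Ms4a2, Cma1 and Tpsb2), where 27.8% and 25.2% of all genes were. Cpa3 read 97.1, 389 and 186 CPM at the start, 102, 663 and 391 CPM in DMSO and 76.9, 760.3 and 420.1 CPM at 0.05 uM. Mcpt8 read 33.3, 188 and 75.9 CPM at the start, 18.8, 337 and 122 CPM in DMSO and 16.7, 385 and 147 CPM at 0.05 uM. For both genes the treated value stayed near the DMSO value of its own culture, with differences of -0.41, 0.20 and 0.10 and -0.17, 0.19 and 0.26 in cultures 91, 94 and 95. Tpsb2 read 1.38, 8.94 and 3.49 CPM at the start, 0.229, 20.9 and 6.66 CPM in DMSO and 1.41, 28.8 and 12.3 CPM at 0.05 uM. Gata2 read 15.3, 83.9 and 39.3 CPM at the start, 7.11, 109 and 48.8 CPM in DMSO and 6.54, 118 and 49.3 CPM at 0.05 uM. Hdc read 13.6, 82.9 and 40.6 CPM at the start, 8.42, 104 and 45.5 CPM in DMSO and 4.34, 107 and 43.5 CPM at 0.05 uM. In culture 91 these 3 genes stood lower after 24 h in DMSO than at the start, while in cultures 94 and 95 they stood higher. Il1rl1 read 14.4, 32.6 and 26.4 CPM at the start, 3.96, 63.3 and 38.6 CPM in DMSO and 4.299, 72.5 and 36.4 CPM at 0.05 uM. Ms4a2 read 4.51, 24.3 and 12.3 CPM at the start, 3.602, 53.3 and 26.5 CPM in DMSO and 3.95, 57.6 and 30.5 CPM at 0.05 uM. The within-culture differences of Il1rl1 were 0.11, 0.19 and -0.08, beside called changes of -2.64 to -2.15 in GM cultures at higher doses, and the difference between the cultures was not tested because the doses differ.

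Among eosinophil genes, Prg2 read 170.3, 663 and 367 CPM at the start, 218, 2063 and 947 CPM in DMSO and 167, 2216 and 886 CPM at 0.05 uM. Epx read 44.8, 141 and 76.7 CPM at the start, 17.5, 182 and 90.1 CPM in DMSO and 17.4, 194 and 85.7 CPM at 0.05 uM. Their within-culture differences were -0.39, 0.10 and -0.10 and -0.0018, 0.09 and -0.07. Siglecf read 6.15, 9.202 and 5.62 CPM at the start, 8.09, 31.8 and 19.9 CPM in DMSO and 2.85, 20.5 and 7.83 CPM at 0.05 uM. Ear2 read 2.56, 3.03 and 3.22 CPM at the start, 5.57, 19.7 and 19.5 CPM in DMSO and 1.697, 14.04 and 7.81 CPM at 0.05 uM. Both were lower with AZD5582 in each culture, with differences of -1.47, -0.63 and -1.34 and -1.66, -0.48 and -1.31, but with the block their adjusted p was 0.144 and 0.209. A blocked fit without culture 91 called 1 of the 15 higher and 2 lower, beside 12.8% and 11.6% of all genes.

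After 24 h in DMSO most neutrophil genes stood higher than at the start in the FL cultures, though few passed the test. Of the neutrophil genes 14 of 18 were higher in all 3 cultures, and 6 of the 15 other members were, where 28% of all genes were. edgeR called 1 neutrophil gene without the block, Retnlg (3.11 ± 0.79, adjusted p = 0.0435; 4.96% of all genes rose), and 2 with it, Retnlg (3.12 ± 0.35, adjusted p = 0.0109) and Mmp9 (1.67 ± 0.39, adjusted p = 0.0292; 9.23% of all genes rose). The unblocked call was lost on leaving out any 1 of the 6 libraries (adjusted p from 0.0521 to 0.165). Of the second list edgeR called 0 without the block (2 at an unadjusted p under 0.05, and 2 by DESeq2) and 2 with it, Cma1 (2.38 ± 0.47, adjusted p = 0.0217) and Ear2 (2.05 ± 0.49, adjusted p = 0.0325). With the block 12 of the 15 were called higher without culture 91, beside 10.2% of all genes, and 0 without culture 94 or 95, where no gene at all was called. The 4 azurophil granule genes stood below their start level in culture 91, and the differences in cultures 91, 94 and 95 were -2.95, 0.21 and -0.13 for Elane, -2.07, 0.03 and -0.15 for Mpo, -1.65, 0.54 and 0.56 for Ctsg and -1.02, 0.82 and 0.39 for Prtn3. Dendritic cell markers moved beside these values: the 12 markers summed to 25309, 18719.8 and 20449.6 CPM at the start and 11016, 9766 and 13789.7 CPM in DMSO in cultures 91, 94 and 95. Of the 12, 4 fell and 1 rose without the block (5.18% and 4.96% of all genes), with a median change of -0.96. Their part in the higher neutrophil gene RNA was not tested.

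The change over 24 h in DMSO was compared between the cultures by an interaction term. No neutrophil gene differed (0 of 18, with 2 at an unadjusted p under 0.05 and 0 by DESeq2; 4.84% of all genes did). Of the other list 3 of 15 had a higher change in FL cultures, where 0.881% of all genes did: Siglecf (2.77 ± 0.69, adjusted p = 0.0218), Ear2 (3.098 ± 0.70, adjusted p = 0.0126) and Ear6 (3.47 ± 0.93, adjusted p = 0.0335). These genes fell in GM cultures, with changes of -1.27, -0.76 and -2.398, while in FL cultures the differences were 1.51, 2.35 and 1.09 and were not called without the block. With the replicate number as a block, 7 of the 15 differed (2.14% of all genes were higher), adding Cpa3 (1.32), Prg2 (1.93), Hdc (1.66) and Ear1 (2.07). With it 2 neutrophil genes differed (9.76% of all genes), Cxcr2 (2.07) and Hp (-1.24). Libraries of the same number deviated together more strongly in FL than in GM cultures. Without the block the calls of Siglecf and Ear6 were lost without GM start replicate 1, GM DMSO replicate 3, FL start culture 91 or 95, or FL DMSO culture 94 (adjusted p from 0.0549 to 0.0645 for Siglecf), and that of Ear6 also without GM start replicate 2 or 3 or GM DMSO replicate 1 or 2 (adjusted p from 0.0552 to 0.0945).

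Other genes of these lineages were read from 2 further lists. Of 28 other neutrophil genes 27 were tested in GM cultures, and 20 fell and 4 rose at 1 uM (28.2% and 26.9% of all genes). The widest falls were those of Cd177, a surface protein of neutrophils (-5.89 ± 0.31), Padi4, which converts arginine to citrulline in histones (-5.798 ± 0.28), and Fpr1, a receptor for formylated peptides (-5.65 ± 0.25). Cd177 stood at 8.00 to 9.80 CPM in DMSO and 0.0746 to 0.237 CPM at 1 uM. The 4 that rose, named after their values were seen, were Orm1 (1.85), Serpinb1a (1.77), Il1r2 (1.56) and Mmp25 (1.18), and the summed level of this list was higher under treatment than in DMSO, at 1133, 1269.5 and 1277 CPM in DMSO and 1459, 1704 and 1990.2 CPM at 1 uM. At 0.1 uM 18 fell and 5 rose (20.3% and 19.9% of all genes), and at 0.5 uM 21 fell and 4 rose (27.7% and 25.8%), while 8 fell and 1 rose between 0.1 and 1 uM (11.9% and 6.93%). In FL cultures at 0.05 uM 13 of 27 fell with the block (3.19% of all genes) and 0 without it (1.28%; 3 at an unadjusted p under 0.05, and 1 called by DESeq2), and the 13 include Cd177 (-3.02), Lrg1 (-2.87) and Ceacam10 (-2.81). After 24 h in DMSO 6 rose and 6 fell in GM cultures (27.2% and 20.3% of all genes), with the widest rises in Mmp25 (3.81 ± 0.15), Asprv1 (2.81 ± 0.60) and Itgb2l (2.78 ± 0.21). In FL cultures 0 of 27 were called over the same time without the block (2 at an unadjusted p under 0.05, and 2 by DESeq2; 4.96% of all genes rose and 5.18% fell) and 5 rose with it (9.23% of all genes). At the start 14 were higher and 6 lower in FL than in GM cultures (23.4% and 17.5% of all genes), with Stfa1 at 3.83 ± 0.88 and the receptors Fpr1 and Fpr2 at -4.499 ± 0.58 and -3.66 ± 0.74.

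Of 26 other mast cell, basophil and eosinophil genes 16 were tested in GM cultures, and 4 rose and 5 fell at 1 uM, shares near the 26.9% and 28.2% of all genes. Il13, a cytokine made by mast cells, basophils and lymphocytes, rose the most (6.96 ± 0.49, adjusted p = 1.37e-09), from 8 counts over the 3 DMSO libraries to 682 over the 3 libraries at 1 uM. It stood at 0.0229 to 0.0629 CPM in DMSO, 2.04 to 3.20 CPM at 0.1 uM, 4.17 to 6.72 CPM at 0.5 uM and 3.42 to 6.99 CPM at 1 uM. Hpgds, which makes prostaglandin D, fell (-2.86 ± 0.27), and so did Mitf, a transcription factor of mast cells and macrophages (-1.69 ± 0.12). At 0.1 uM 2 rose and 5 fell (19.9% and 20.3% of all genes), and at 0.5 uM 5 rose and 4 fell (25.8% and 27.7%), while 1 rose and 2 fell between 0.1 and 1 uM (6.93% and 11.9%). In FL cultures none of 17 was called by edgeR at 0.05 uM with or without the block (6.88% and 2.9% of all genes), with 2 at an unadjusted p under 0.05 and 1 called by DESeq2. After 24 h in DMSO Kit, the receptor of stem cell factor, rose in GM cultures (2.74 ± 0.25) and in FL cultures (2.79 ± 0.63, adjusted p = 0.0319, lost without any 1 of the 3 FL start libraries or DMSO culture 91, adjusted p from 0.0528 to 0.129), and Alox15, a lipoxygenase of eosinophils and macrophages, fell in GM cultures (-4.39 ± 0.33). At the start 11 of 18 were higher in FL cultures and 2 lower (23.4% and 17.5% of all genes), led by Slc18a2 (5.22 ± 0.94), Gata1 (4.398 ± 1.14) and Cyp11a1 (4.34 ± 0.95).

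Markers of further cell types were read in the same way. At 1 uM in GM cultures 26.9% of all genes rose and 28.2% fell. Of 7 tested progenitor markers 2 rose and 3 fell at that dose, and their sum was 62.2, 61.9 and 84.5 CPM in DMSO and 64.7, 65.6 and 77.3 CPM at 1 uM. The 12 B cell, T cell and erythroid markers summed to 1.82 to 22.2 CPM over all libraries, and 5 of 8 tested rose at 1 uM. Of the 11 dendritic cell markers tested 4 rose and 5 fell at 1 uM. In FL cultures 2 of 12 monocyte and macrophage markers fell and 1 rose at 0.05 uM without the block (1.28% and 1.62% of all genes), with a sum of 956, 1394 and 1654 CPM in DMSO and 353, 874 and 668 CPM with AZD5582. Their part in the lower neutrophil gene RNA of these cultures was not tested.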

How the data were processed

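Per the submitters' processing notes, reads were handled with STAR 2.7.3a, HTSeq 0.12.4 and DESeq2 1.30.1 on GRCm39; annotation release and strand setting: not given in the sources used here. The authors deposited whole-number read counts per gene, 1 file for each of 24 libraries, and 10.98% to 16.4% of the counts in a file stood on lines that name no gene and were left out. Gene symbols came from a GENCODE M21 table, which names 52081 of the 55414 identifiers. Counts were fitted with edgeR 4.0.16 (limma 3.58.1, R 4.3.3): TMM factors, filterByExpr on the groups, robust quasi-likelihood fits of group means, and Benjamini-Hochberg adjustment over all tested genes, called under 0.05. There were 3 fits, on 15 GM libraries (16152 genes), 9 FL libraries (15961 genes) and all 24 (17262 genes). CPM used TMM factors over all 24 libraries, and log2 values added 0.1 CPM. A ± value is the SE of a log2 fold change. Libraries held 27012555 to 85820558 gene counts; intervals and the floor of 3 counts set for a group at 0 cover counting error only.

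The members and all gene lists were chosen with earlier results of these data known. All 34 members are accounted for by role; values in every library are given for members whose group mean reached 10 CPM anywhere, up to 4 per role, and from the 2 further lists up to 3 genes with the widest called change and at least 1 CPM. FL libraries with the same culture number (from the titles) deviated together (r = 0.135 to 0.689 over 9 pairs, against -0.671 to 0.338 over 18 other pairs), so the number was used as a block. Alternatives were RLE size factors, no filter on low counts, DESeq2 1.42.0, fits of the compared groups only, the replicate block and leaving out each library. The edgeR steps were tested on simulated counts in which libraries shared no culture effect. That test cannot show how the calls behave in FL cultures, where same-numbered libraries deviated together. Promoters matched by symbol for 28 of 34 members.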

Additional observations from a re-analysis of the deposited data

Results flagged for a closer look

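The change from the start to 24 h in DMSO differed between FL and GM cultures for 3 eosinophil genes, by the interaction term of the edgeR fit over all libraries: Siglecf with 2.77 (log2 difference of the 2 changes, adjusted p = 0.0218), Ear2 with 3.098 (0.0126) and Ear6 with 3.47 (0.0335). Each fell in GM cultures and was higher in FL cultures 94 and 95, with within-culture differences of 0.39, 1.78 and 1.81 for Siglecf and 1.09, 2.66 and 2.56 for Ear2 in cultures 91, 94 and 95. The Ear genes are near-identical copies, and how reads divide among them was not tested.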

How the results depend on the processing

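Over the alternatives run, no result reversed. RLE size factors moved the median of all genes by under 0.1 and changed no count past 1.5 times. Counts of called members and of all genes that moved past 1.5 times were these; the cause was not tested. Between 1 and 0.1 uM in GM cultures, 1 mast cell, basophil and eosinophil gene became 4 without the filter, 2 with the replicate block and 3 by DESeq2, and 3036 of all genes became 1785 when only the compared groups were fitted. For FL DMSO against the start, 1 neutrophil gene became 0 without the filter and 2 with the block, by DESeq2 and with the compared groups only; 0 of the other list became 2 with the block and 2 by DESeq2; 1619 of all genes became 3107, 3503 and 582 with the block, by DESeq2 and with the compared groups only. For FL 0.05 uM against DMSO, 0 neutrophil genes became 10 with the block and 4 by DESeq2, and 463 of all genes became 1098, 1526 and 31. For the difference of the changes to DMSO, 835 of all genes became 503 without the filter, 1685 with the block and 261 with the compared groups only, 0 neutrophil genes became 2 with the block, and 3 of the other list became 1 without the filter and 7 with the block. In the further lists, 9 other neutrophil genes called between 1 and 0.1 uM became 14 by DESeq2 and 16 without the filter. For FL 0.05 uM, 0 became 13 with the block and 1 by DESeq2, and 0 other mast cell, basophil and eosinophil genes became 1 by DESeq2. For FL DMSO against the start, 0 other neutrophil genes became 5 with the block and 2 by DESeq2, and 1 of the other mast cell, basophil and eosinophil genes became 3, 4 and, without the filter, 0. For the difference of the changes, 1 other neutrophil gene became 3 with the block, 2 by DESeq2 and 0 without the filter, and 2 of the other mast cell, basophil and eosinophil genes became 4 with the block and 1 without the filter.

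Leaving out 1 library gave 4 to 9 called mast cell, basophil and eosinophil genes at 0.5 uM (4 without 0.5 uM replicate 2) and 5 to 10 at 1 uM (5 without DMSO replicate 1). For these 2 doses the numbers of all genes called are not given here. Between 1 and 0.1 uM it gave 1831 to 2937 of all genes, 7 to 11 neutrophil genes and 1 to 2 of the other list. For FL DMSO against the start it gave 13 to 1454 of all genes, 0 neutrophil genes and 0 to 1 of the other list, for FL 0.05 uM 17 to 1983, 0 to 8 and 0, and for the difference of the changes 486 to 1869, 0 and 1 to 4. Leaving out an FL culture in the blocked fit was chosen after seeing the data. Without culture 91, 94 or 95 it called 5, 11 and 0 neutrophil genes, 3, 0 and 0 of the other list and 3958, 155 and 0 of all genes at 0.05 uM, and 4, 0 and 0, 12, 0 and 0 and 3640, 0 and 0 for DMSO against the start.

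In GM cultures too the titles tie the groups by replicate number. Same-numbered pairs had r = 0.0102 to 0.226 (median 0.0773 over 30 pairs), against -0.127 to 0.0573 over 60 other pairs (median -0.0386). Of the libraries 15 of 15 correlated best with their own number. The changes printed for GM cultures nevertheless come from fits without this block. The replicate block changed no count of neutrophil genes in GM cultures by over 1.5 times. Elane, Mpo, Ctsg and Prtn3 had few counts in treated GM libraries. Those libraries held 37218202 to 85820558 gene counts, and the GM DMSO libraries held 45268073 to 81007086. The part of depth in the few counts was not tested.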
